A study of Mus musculus with 6 samples.

Results

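The receptor activity modifying proteins (RAMPs) and the calcitonin peptide receptor system were described in mouse heart through 7 genes, namely Ramp1, Ramp2, Ramp3, the receptor gene Calcrl and the peptide genes Adm, Calca and Calcb. Members were taken by the gene name that the array annotation gives each probe, which yielded 10 probes of 41174 noncontrol probes, for 7 of 28785 gene names. The hearts came from male C57BL/6 wild-type mice in 2 groups of 3 biological replicates: mice adrenalectomized at 1 month of age, and mice that had undergone a sham operation. Hearts were collected 6 months after surgery, per the protocol, while the source label gives 6 months as the age of the mice, and the files do not settle which holds. The labels name no transgene or drug and no steroid replacement. Each heart was measured on its own 1-colour Agilent array of 60-base probes. The genes were chosen by their place in this receptor system, with their differences between adrenalectomized and sham hearts in view, so their differences are given as a description, with no p-value.

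Adrenalectomy takes away the glands that make most of the circulating corticosterone and aldosterone. The calcitonin-like receptor encoded by Calcrl is a G protein coupled receptor that reaches the cell surface and binds its ligands only together with a RAMP, a small protein with a single membrane span. With RAMP1 it forms the receptor for calcitonin gene-related peptide (CGRP), a vasodilator released from sensory nerves, and with RAMP2 or RAMP3 it forms receptors for adrenomedullin, a vasodilator peptide that is the product of Adm. The complex of calcitonin-like receptor and RAMP2 in endothelium is required for normal blood and lymphatic vessel development in mice. Receptor binding raises cyclic AMP through the stimulatory G protein.

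Of the 10 probes, 5 were well above background on all 6 arrays, 1 probe each for Ramp1, Ramp2, Ramp3, Calcrl and Adm. The other 5 probes, both of Calca, the single probe of Calcb and a second probe each of Ramp1 and Calcrl, were near background and were not tested. The Ramp1 probe is shown because the result on Ramp1 rests on it alone. Its 60 bases lie at chr1:91104321-91130576 on the plus strand of the mm7 design assembly, a stretch of 26256 bases, so the probe crosses at least 1 splice junction.
Ramp1 probe: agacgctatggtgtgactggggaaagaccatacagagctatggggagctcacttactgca

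The Ramp1 promoter is shown because Ramp1 had the largest difference among the members. It is given from 250 bases before to 30 after the start site, from RefSeq on GRCm38.p6 (chr1:91179572-91179851, plus strand). Capitals mark the single match to TGACG, the short core of the cyclic AMP response element, which lies here on the opposite strand.
Ramp1 promoter: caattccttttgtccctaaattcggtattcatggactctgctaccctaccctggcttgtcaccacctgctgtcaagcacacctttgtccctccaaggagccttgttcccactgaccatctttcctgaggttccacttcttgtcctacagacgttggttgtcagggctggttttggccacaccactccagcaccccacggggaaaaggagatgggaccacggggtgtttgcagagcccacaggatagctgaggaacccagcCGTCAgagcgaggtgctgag
The promoter table held 5 of the 7 genes (Ramp1, Ramp3, Calcrl, Adm and Calca) in windows of 250 bases before to 50 after the start. Both strands were searched for the glucocorticoid response element GNACANNNTGTNC and its half-site TGTTCT, the cyclic AMP response element TGACGTCA and its core TGACG, the Sp1 site GGGCGG and the hypoxia-inducible factor core ACGTG, where TGACGTCA contains the core. The glucocorticoid response element matched in 0 of the 5 windows and in 0.47% of all 32851 promoters. The half-site matched in 1 of the 5, that of Calcrl, and in 19.0% of all. The core TGACG matched in Ramp1 and Calca and in 20.8% of all. These matches describe the letters of the windows and say nothing about binding.

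Ramp1, the partner that gives the receptor its CGRP specificity, had lower levels in adrenalectomized hearts. Its log2 levels, each set against the 75th percentile of all probes on that array, were 0.15, 0.26 and -0.04 in adrenalectomized hearts, against 1.02, 1.23 and 0.99 in sham hearts. All 3 adrenalectomized values lay below all 3 sham values, and the gap between the groups was wider than the range within either. The means were 0.12 ± 0.15 in adrenalectomized hearts and 1.08 ± 0.13 in sham hearts (SD, n = 3 each), a difference of -0.96 (SE 0.13), or 1.94-fold lower. In unscaled processed signal the adrenalectomized arrays gave 813, 940 and 737 intensity units and the sham arrays 1272, 1422 and 1719. In whole heart RNA, fewer cells of a type and less RNA per cell cannot be told apart.

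Ramp1 did not pass the threshold in the limma fit. None of the 5 members tested did, at a Benjamini-Hochberg adjusted p under 0.05, whether over all 23990 probes, of which 0 were higher and 0.00417% lower, or over all 16949 genes, of which 0 were higher and 2 (0.0118%) lower. In that fit 2103 genes had an unadjusted p under 0.05. Values of the groups failed to overlap for 1 of the 5 members, with adrenalectomized hearts lower, and for 8.57% of all genes in that direction. A difference at least as far below 0 as that of Ramp1 was seen for 111 genes. Because the members were grouped with this contrast in view, these counts support nothing about Ramp1.

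**Figure D1:**
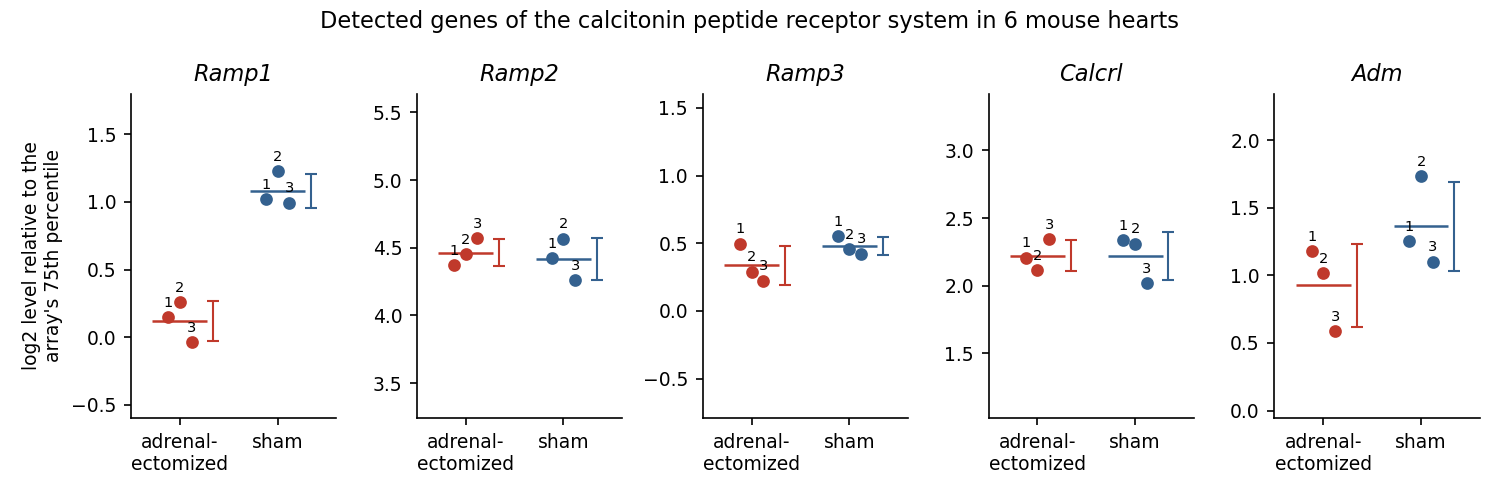
Log2 level relative to the array's 75th percentile (y axis) of the 5 detected genes on each array, with adrenalectomized hearts left and sham hearts right; numbers are replicates, horizontal lines means and bars SD (n = 3). Ramp1 is the only panel in which the groups do not overlap, with adrenalectomized values from -0.04 to 0.26 and sham values from 0.99 to 1.23.

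The arrays lay on 2 slides that were scanned separately, with adrenalectomized replicate 1 and all sham arrays on slide 1 and adrenalectomized replicates 2 and 3 on slide 2. Within slide 1, Ramp1 in adrenalectomized replicate 1 differed from the sham mean by -0.93, a value that rests on 1 adrenalectomized array. Slide 2 held no sham array, so for adrenalectomized replicates 2 and 3 slide and surgery cannot be told apart. With each array left out in turn, the Ramp1 difference ran from -1.02 to -0.88.

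Ramp2, the partner for adrenomedullin binding in endothelium, had levels of 4.37, 4.45 and 4.57 in adrenalectomized hearts, against 4.42, 4.57 and 4.26 in sham hearts. The groups overlapped, and the highest and lowest of the 6 values came from adrenalectomized replicate 3 and sham replicate 3. The means were 4.46 ± 0.10 in adrenalectomized hearts and 4.42 ± 0.15 in sham hearts (SD, n = 3 each). The difference was 0.05 (SE 0.12), with a 95% interval of -0.24 to 0.34.

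Ramp3, the other adrenomedullin partner, which also changes how the receptor is recycled after activation, had levels of 0.50, 0.29 and 0.22 in adrenalectomized hearts, against 0.55, 0.46 and 0.42 in sham hearts. Adrenalectomized replicate 1 lay among the sham values, and the other adrenalectomized hearts lay below them. The difference was -0.14 (SE 0.12), with a 95% interval of -0.42 to 0.13, and within slide 1 it was 0.018.

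Calcrl, the receptor that all 3 RAMPs share, had levels of 2.21, 2.11 and 2.34 in adrenalectomized hearts, against 2.33, 2.31 and 2.02 in sham hearts. The groups overlapped throughout, with adrenalectomized replicate 3 highest and sham replicate 3 lowest. The difference was -0.00023 (SE 0.13), with a 95% interval of -0.31 to 0.31. Set against the receptor on the same array and expressed relative to the sham mean, the log2 level of Ramp1 was -0.92, -0.72 and -1.24 in adrenalectomized hearts and -0.17, 0.06 and 0.12 in sham hearts. Against Ramp2 it was -0.89, -0.86 and -1.27 in adrenalectomized hearts and -0.07, -0.0038 and 0.07 in sham hearts. Against Ramp3 it was -0.95, -0.63 and -0.86 in adrenalectomized hearts and -0.14, 0.17 and -0.03 in sham hearts. Against Adm the values were nearer to 0, at -0.75, -0.48 and -0.34 in adrenalectomized hearts and 0.05, -0.22 and 0.17 in sham hearts. In these 4 comparisons the level of Ramp1 was lower on every adrenalectomized array than on any sham array. All 4 reuse the Ramp1 values that were in view when the members were chosen, so they give no separate support.

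Adm, whose peptide acts on vessels and is induced by hypoxia, had levels of 1.18, 1.01 and 0.59 in adrenalectomized hearts, against 1.25, 1.73 and 1.10 in sham hearts. Adrenalectomized replicate 1 lay above sham replicate 3, so the groups overlapped, and the spread within each group was wide. The means were 0.93 ± 0.31 in adrenalectomized hearts and 1.36 ± 0.33 in sham hearts (SD, n = 3 each). The difference of -0.44 (SE 0.22) had a 95% interval of -0.95 to 0.08. It was -0.19 within slide 1, -0.25 without sham replicate 2 and -0.27 without adrenalectomized replicate 3, so leaving out either array brought it nearer to 0.

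**Figure D2:**
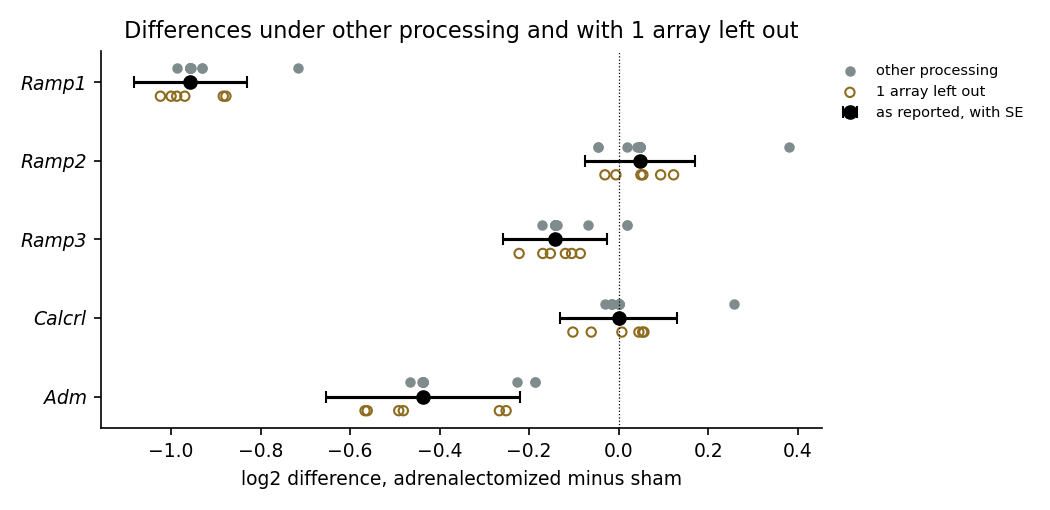
Log2 difference, adrenalectomized minus sham (x axis), of the 5 detected genes: black points with SE as reported, grey points under other processing and open circles with 1 array left out. Ramp1 ranged from -1.02 to -0.72 and did not reach 0, while Ramp2, Ramp3 and Calcrl crossed 0 and Adm ranged from -0.57 to -0.19.

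The CGRP genes gave almost no signal. Calca is read into either of a pair of messenger RNAs by alternative splicing, one for calcitonin, the thyroid hormone, and the other for CGRP, made mainly in neurons. The array carried a probe for each annotated transcript variant, and 30 bases of each are shown because the probes lie at different places in the gene, on the minus strand of mm7 at chr7:110549383-110549442 (variant 1) and chr7:110547755-110547814 (variant 2). Capitals mark the polyadenylation signal that the second one holds. Which probe reads the calcitonin messenger RNA and which the CGRP one was not determined, so neither signal is given as a reading of CGRP.
Calca variant 1: gtagagcttctagtcttgcttctggaagtg
Calca variant 2: gactctgtatccAATAAAcatgacagcatg
The variant 1 probe gave 31.0, 59.4 and 42.4 intensity units in adrenalectomized hearts and 12.8, 39.5 and 19.4 in sham hearts, and was well above background only on the array of adrenalectomized replicate 2. The groups overlapped. The variant 2 probe gave 8.01, 7.15 and 7.28 units in adrenalectomized hearts and 8.01, 8.62 and 8.41 units in sham hearts, and was above background on none of the 6 arrays. Its groups did not overlap in this unscaled signal and overlapped after scaling.

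Calcb, which encodes the second form of CGRP, gave 44.3, 27.7 and 8.88 units in adrenalectomized hearts and 30.4, 10.4 and 35.3 units in sham hearts. It was well above background only on the array of adrenalectomized replicate 1, and the groups overlapped. With both groups near background no fold is given for Calca or Calcb.

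The second probe of Ramp1 was designed on a thymus cDNA clone and lies at chr1:91095243-91095302 on mm7, apart from the stretch that the detected probe covers. It gave at most 36.5 units and was above background on no array, so it neither repeats nor contradicts the detected probe. The second probe of Calcrl lies at chr2:84176632-84176691 on the minus strand, 5′ of the detected one at chr2:84174628-84174687. It gave at most 30.9 units and was above background on no array, although the detected probe read between 3016 and 3831 units. The remaining detected probes lie on the plus strand of mm7 at chr11:101357227-101357286 (Ramp2), chr11:6629300-6629359 (Ramp3) and chr7:106544845-106544904 (Adm), and the Calcb probe at chr7:110639085-110639144. Their exons are not given, since no gene models of mm7 were read.

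**Figure D3:**
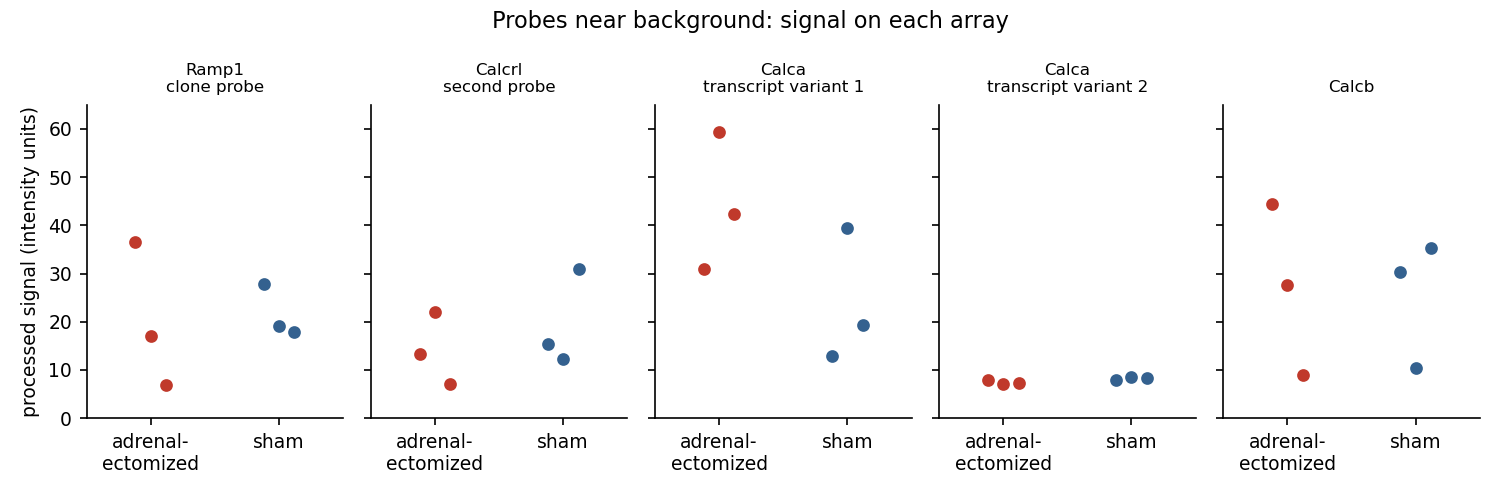
Processed signal in intensity units (y axis, from 0) of the 5 probes near background, with adrenalectomized hearts left and sham hearts right in each panel and 1 point per array. All 30 values are below 60 units. In this unscaled signal the groups overlap for 4 of the 5 probes, the exception being Calca variant 2, and after scaling between arrays they overlap for all 5.

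Other genes of the peptide system gave no call. The list held 15 genes for related peptides and receptors, binding proteins, and enzymes that process or degrade the peptides. Adm2, Calcr, Iapp and Pcsk1 were near background, which left 11 tested, of which 0 rose and 0 fell over all genes (0.0118% of all genes passed). Values were higher for 5 and lower for 6, with a median difference of -0.0036, beside 0.02 for all genes.

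Pam encodes the enzyme that adds the terminal amide which CGRP and adrenomedullin need for activity. Its levels were 1.39, 1.84 and 2.03 in adrenalectomized hearts, against 2.65, 3.19 and 2.67 in sham hearts. The groups did not overlap, and the difference was -1.08 (SE 0.22, limma adjusted p = 0.199), which did not pass. Pam is also abundant in atrial muscle cells. Mme, neprilysin, which degrades vasoactive peptides, had means of -1.40 ± 0.13 in adrenalectomized hearts and -1.75 ± 0.19 in sham hearts (SD, n = 3 each), a difference of 0.35 (SE 0.13, limma adjusted p = 0.379).

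Gpr182, an endothelial receptor once proposed for adrenomedullin, differed by -0.29 (SE 0.15). Ide, a peptide-degrading protease, differed by -0.18 (SE 0.10). Limma adjusted p-values were 0.473 for Gpr182 and 0.515 for Ide.

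Signalling genes downstream of the receptor gave no call either. Of 21 tested, 0 passed in either direction, 9 had higher and 12 lower values, and the differences ran from -0.45 to 1.16 with a median of -0.04. The upper end, that of Rapgef4, rested on adrenalectomized replicate 1 and was -0.27 without it. Nsf, an ATPase of membrane fusion known to bind RAMP3 during receptor recycling, differed by -0.37 (SE 0.15, limma adjusted p = 0.381). The adenylyl cyclase gene Adcy3 differed by 0.41 (SE 0.22, adjusted p = 0.483) and Creb1, the transcription factor activated by cyclic AMP, by -0.45 (SE 0.26, adjusted p = 0.519).

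Other receptors reported to bind a RAMP were mostly near background, with 5 of 11 tested and 0 passing in either direction. Vipr1, a receptor for vasoactive intestinal peptide, differed by 0.85 (SE 0.36, limma adjusted p = 0.408), and by 0.41 without adrenalectomized replicate 3. Gcgr, the glucagon receptor gene, differed by -0.32 (SE 0.23) and Gper1, a membrane estrogen receptor gene, by 0.13 (SE 0.12), without passing. Of 12 hypoxia targets, a class to which Adm belongs, 0 passed, 7 had higher and 5 lower values, and the median was 0.02. Ddit4, an inhibitor of growth signalling, differed by -0.61 (SE 0.25, limma adjusted p = 0.396), Bnip3, a mitophagy receptor, by 0.47 (SE 0.21, adjusted p = 0.421), and the glucose transporter gene Slc2a1 by -0.17 (SE 0.10, adjusted p = 0.547). All 8 genes on a list of glucocorticoid-induced genes had lower values, from -0.44 to -0.06, with a median of -0.29, and 0 passed. Per1 was at -0.06 (SE 0.24). It was above 0 without adrenalectomized replicate 3, sham replicate 2 or sham replicate 3 (0.11, 0.04 and 0.06). The other genes of this list stayed below 0 with any array left out, Fkbp5 reaching -0.08 without adrenalectomized replicate 3.

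**Figure D4:**
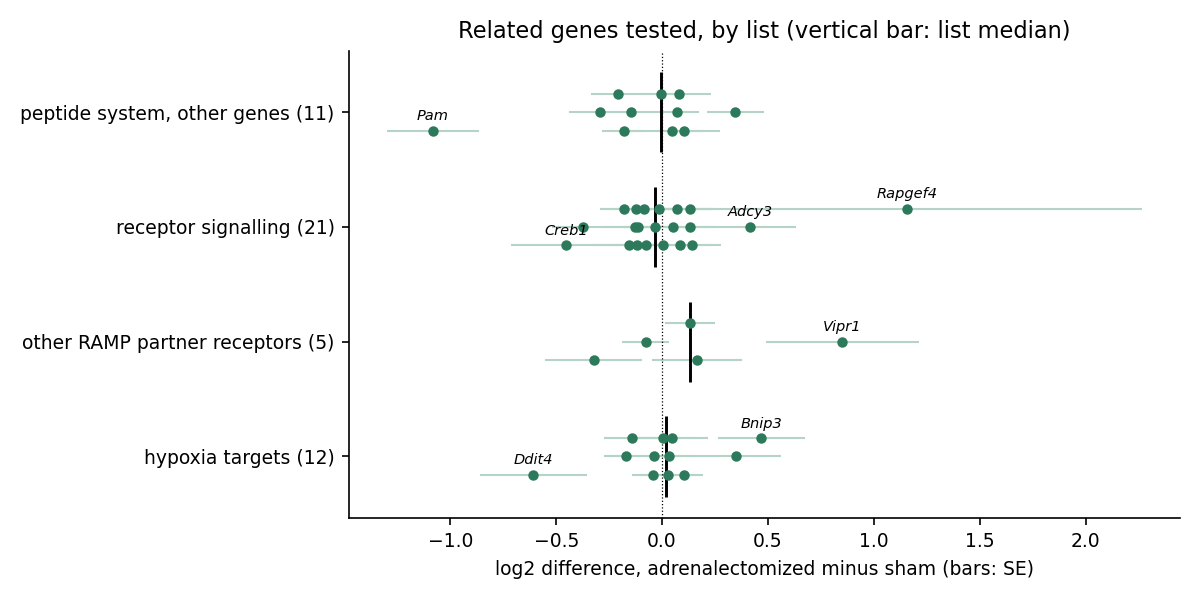
Log2 difference, adrenalectomized minus sham (x axis, bars SE), of each tested gene in 4 lists of related genes, with the number tested in brackets and the list median as a vertical bar. Pam at -1.08 is the lowest value in the 4 lists, and the medians lie between -0.04 and 0.13.

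Cardiomyocyte markers were all well above background on the 6 arrays, with 9 of 9 tested, and the labelled tissue is heart. Mb (myoglobin) differed by -0.21 and Myl3 (ventricular light chain) by -0.20, and 0 markers passed. Values were lower for 7 of the 9, with a median of -0.17, and the summed level was 4588 to 4904 on adrenalectomized arrays and 4855 to 5770 on sham arrays. Atrial markers moved with Ramp1: 9 of 10 had lower values and 0 passed, and the summed level, in multiples of the array's 75th percentile, was 1188 to 1264 on adrenalectomized arrays and 1521 to 2325 on sham arrays. Nppa, the atrial natriuretic peptide gene, differed by -0.71 and Myl7, the atrial light chain gene, by -0.54. No atrial marker was below background on all arrays of a group. Per array, the atrial median stood at -0.67, -0.54 and -0.73 from the sham mean in adrenalectomized hearts and at -0.07, 0.28 and -0.25 in sham hearts. Sham replicate 2 was the highest array for both the atrial list and Ramp1. The part of atrial content in the Ramp1 difference was not tested.

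Vessel markers, which bear on Calcrl, Adm and the RAMPs, Ramp1 among them, had medians nearer to 0 than the atrial list. Among 12 blood endothelial markers, 4 had higher and 8 lower values, the median was -0.18, and the summed level was 152 to 180 on adrenalectomized arrays and 177 to 202 on sham arrays. Egfl7 differed by 0.0064 and Flt1 by -0.37, and the differences of the list ran from -0.65 to 0.19. All 6 lymphatic endothelial markers had lower values, with a median of -0.20, Prox1 at -0.36 and Lyve1 at -0.46. Their summed levels were 4.92 to 5.11 on adrenalectomized arrays and 6.04 to 6.65 on sham arrays. Prox1, the brightest of these markers, weighed most in the sum, which does not stand for the whole list. Of 10 smooth muscle and pericyte markers, 3 had higher and 7 lower values, the median was -0.26, and the summed level was 108 to 143 on adrenalectomized arrays and 103 to 188 on sham arrays. Of these, Acta2 was at -0.05, Kcnj8 at 0.18, Tagln at -0.70 and Cnn1 at -0.75. The Cnn1 value rested on sham replicate 2 and was 0.0076 without that array. Without it Tagln was at -0.41 and Acta2 at 0.45. Nerve markers, which bear on Calca, had a median of 0.01 over 11 tested, with summed levels of 7.54 to 8.97 on adrenalectomized arrays and 7.24 to 9.02 on sham arrays, Uchl1 at 0.0093 and the neuropeptide gene Gal at 0.40. Th, Dbh and Npy were near background. Adipocyte markers had higher values for 10 of 10 tested, with a median of 1.36, Fabp4 at 0.29 and Lpl at 0.31. Their summed level was 730 to 1048 on adrenalectomized arrays and 569 to 703 on sham arrays. Fabp4 and Lpl, the brightest of the list, weighed most in it, so the sum does not stand for the other adipocyte markers. Per array the list median overlapped between the groups, at 0.32 in adrenalectomized replicate 1 and 0.67 in sham replicate 2. Elovl3, a brown fat gene, was above background on no sham array, so it was tested only through its adrenalectomized arrays. None of the marker genes in these 5 lists passed. Their part in the members' values was not tested.

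**Figure D5:**
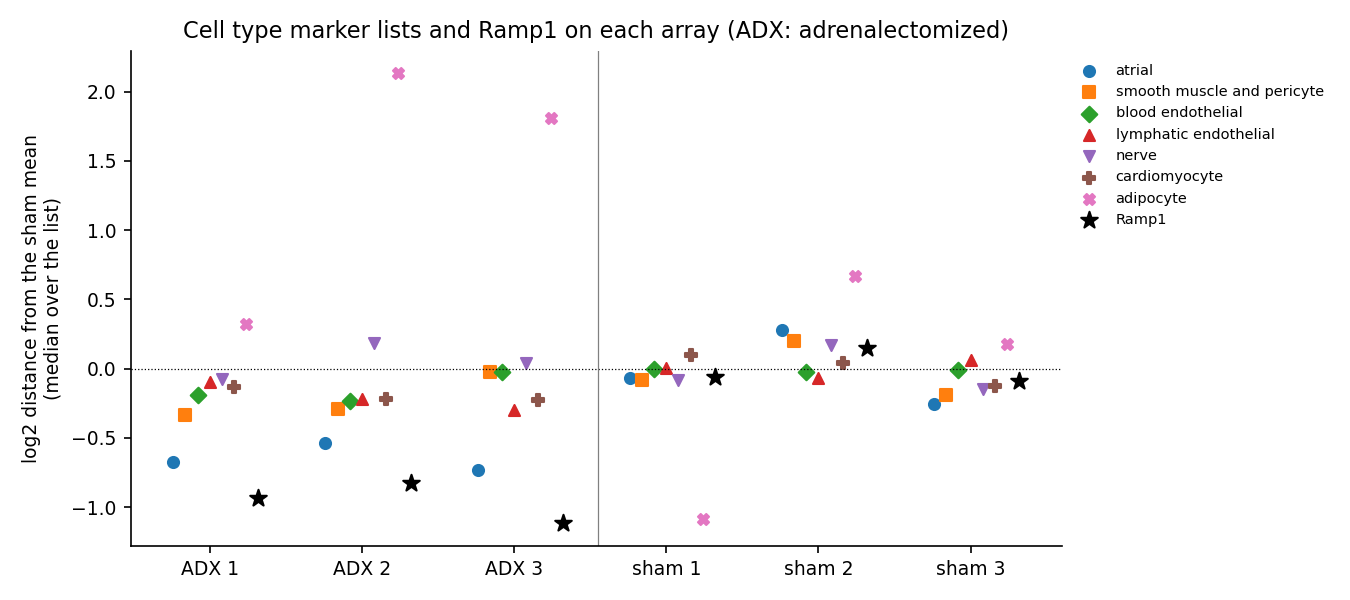
Median log2 distance from the sham mean (y axis) of 7 lists of cell type markers and the same distance of Ramp1 (stars), by array (x axis). Ramp1 and the atrial list are the lowest symbols on the adrenalectomized arrays, and the adipocyte list spreads from -1.09 to 2.13.

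The genes whose levels over the 6 arrays were most like those of each member were found by Pearson r among 12606 detected genes, as a description of 6 arrays that share their scaling. For Ramp1 these were 2210416O15Rik (r = 0.996), Tstd2 (0.993) and Bcl2l2 (0.990), of which Tstd2, a gene with a sulfurtransferase domain, differed by -1.05 and the others by -0.22 and -0.23. For Ramp2 they were Hhex, a transcription factor gene active in endothelium (0.997), Plxna2, a semaphorin receptor gene (0.990), and Itpr3, a calcium release channel gene (0.988). Ramp3 was most like Inmt (0.983) and Tesc (0.981), and Calcrl was most like Rnf220 (0.993), Tial1 (0.992) and Ergic2 (0.991). For Adm they included Olfr1263 (0.989) and Vwc2 (0.982).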

How the data were processed

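Heart RNA was amplified from 50 ng and labelled with Cy3, per the labels' protocols. Scans were read by Agilent Feature Extraction, version 9.5 per the submitters' processing notes and 9.5.3.1 per the file headers. The deposited processed signal is a linear intensity, background-subtracted and detrended within each array, per the file headers, and not normalized between arrays. The deposited value table held the same intensities for all 45018 spots of each array, with medians of 75.1, 92.2 and 80.9 for adrenalectomized and 70.8, 68.1 and 84.4 for sham arrays, so its scale is linear and it is not centred. Between 57.7% and 66.8% of noncontrol spots per array were well above background, and the 75th percentile of probe signal was 607 to 863 units. Deposited flags of Feature Extraction, which are neither signals nor scores, marked outlier spots and spots well above background.

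Control spots and outlier spots (80 to 133 per array) were dropped, signals taken as log2, repeat spots averaged and the 75th percentile over noncontrol probes of each array subtracted. Of 41174 probes, 22944 were named through a RefSeq accession and the others kept the name in the file. Probes well above background on all 3 arrays of a group were tested (23990), and the brightest represented a gene (16949 genes). Differences were fitted with limma 3.58.1 in R 4.3.3 (lmFit, eBayes, Benjamini-Hochberg over all genes, or over all probes for the members), after a test on simulated data. Python 3.11.15 with pandas 2.3.3 and numpy 2.4.6 read the files, and matplotlib 3.10.9 drew the figures. With 3 arrays a group, the number of arrays limits the precision (median SE 0.14).

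The members and lists were chosen with earlier results of these data known. All members were named. From the lists, genes past the threshold and those of smallest p were named (5 for the peptide system, 3 otherwise), and from marker lists the 2 of highest signal. Rapgef4, Tagln, Cnn1, Elovl3, Th, Dbh, Npy, Per1 and Fkbp5 were named after their values were seen. Some genes that this rule selects are not reported here. Replicate numbers were not treated as pairs in the main fit. Deviations of same-numbered arrays from their group means correlated at 0.157, 0.163 and -0.161, and those of differently numbered arrays at -0.305 to 0.178. With 3 arrays a group, these correlations cannot settle whether the numbers pair the samples. Alternatives covered background correction, scaling, filter, probe summary, slide, replicate block, variance model and each array left out.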

Additional observations from a re-analysis of the deposited data

How the results depend on the processing

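The Ramp1 difference stayed below 0 in all 12 alternatives, but several of them could not change it. The deposited value table, either change of filter, the probe mean, the replicate block and the variance model left it at -0.96. The slide as a block and slide 1 alone gave the same value as each other (-0.93). The difference moved by more than the replicate spread only with normexp background correction (-0.72). That setting gave 1140 higher and 4636 lower genes over all and moved Ramp2 to 0.38, Calcrl to 0.26 and the medians of the peptide system, receptor signalling and partner receptor lists to 0.17, 0.10 and -0.39. Ramp1 passed as lower under normexp, where 27.4% of all genes passed as lower and 6.73% as higher. It also passed with a variance trend and robust estimation, where 3 genes were higher and 7 (0.0413%) lower over all. Because the members were chosen with this contrast in view, these passes support nothing about Ramp1. With the slide as a block and on slide 1 alone Ramp3 was 0.018, and 1 gene was lower in each. Quantile normalization gave 2 higher genes, median centring 3 higher and 5 lower, the filter on all 6 arrays 1 lower, and no filter on dim probes 1 lower, with list medians of -0.15 (peptide system) and -0.014 (partner receptors). The replicate block gave 0 higher and 0 lower genes and left every member difference as it was, and not every array correlated best with its own number. With 1 array left out, genes higher ran from 0 to 8, the most without adrenalectomized replicate 1, and genes lower from 1 to 2. Ramp2 then ran from -0.03 to 0.12, Ramp3 from -0.22 to -0.09, Calcrl from -0.10 to 0.06, and Adm from -0.57 to -0.25. List medians ran from -0.15 to 0.020 (peptide system) and from -0.10 to -0.017 (receptor signalling), both lowest without sham replicate 3, and from 0.018 to 0.15 (partner receptors). The cause of these shifts was not tested. Calca and Calcb had no value except without a filter, and their signals near background limit any statement on them.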
